A study of Mus musculus with 9 samples.

Results

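NRF2, the transcription factor encoded by *Nfe2l2*, and 9 genes of its antioxidant pathway were examined in primary mouse lung endothelial cells (MLEC) with and without JNK. The 10 genes were chosen by name, as the rows of the expression tables whose gene symbol is *Nfe2l2*, *Keap1*, *Hmox1*, *Nqo1*, *Gclc*, *Gclm*, *Srxn1*, *Txnrd1*, *Slc7a11* or *Gsr*, and all 10 were found among 37104 loci. The choice was made with earlier results of these data known. RNA-seq had been carried out on MLEC from adult C57BL/6J mice aged 10 to 12 weeks in 3 groups of 3 libraries. ECtrl cells carried Cdh5-Cre and intact *Mapk8* (JNK1) and *Mapk9* (JNK2). EfCtrl cells lacked Cre and carried LoxP alleles of both genes, and E3KO cells carried Cdh5-Cre together with these LoxP alleles. The cells of all 3 groups were also null for *Mapk10* (JNK3), so the comparison is of loss of JNK1 and JNK2 on a JNK3-deficient background. Cdh5-Cre is driven by an endothelial promoter. The paper reported similar JNK expression in hematopoietic cells of control and E3KO mice. Whether the LoxP alleles were recombined in other cell types left in the culture was not tested here. The lungs of 4 mice were pooled for each library, a separate isolation, and endothelial cells were selected by the surface protein ICAM2 and cultured.

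NRF2 binds antioxidant response elements (AREs) together with small MAF proteins. In resting cells KEAP1 holds NRF2 and passes it to a CUL3 ubiquitin ligase for degradation, and oxidants or electrophiles that modify cysteines of KEAP1 let NRF2 accumulate, so that much of its control is on the protein rather than on *Nfe2l2* mRNA. Its targets import cystine, make and recycle glutathione, reduce thioredoxin and sulfiredoxin substrates, break down heme and reduce quinones. Endothelial cells line vessels that carry oxygen, and heme oxygenase-1 and the glutathione system are well-known parts of their response to oxidative stress and altered flow.

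In E3KO cells, 2 of the 10 genes were called higher than in both controls together, beside 1.54% of all symbols tested. They were *Slc7a11*, the cystine importer, with 3.25 times the mean FPKM of the 6 control libraries, and *Hmox1*, heme oxygenase-1, with 1.77 times. Neither was called against EfCtrl alone (limma adjusted p = 0.0694 and 0.119), and with single libraries left out the calls against both controls held in 5 of 9 fits for *Slc7a11* and in 2 of 9 for *Hmox1*. Only E3KO gave *Slc7a11* the mean of 2 FPKM needed for testing, so its place in the count is no support for the list. With no such minimum neither gene was called (limma adjusted p = 0.128 and 0.208 against both). *Gclm*, the modifier subunit of the enzyme that starts glutathione synthesis, was above all 6 controls in all 3 E3KO libraries but did not pass the test across all genes. *Gclc*, the catalytic subunit of that enzyme, with 1.29 times the control mean, *Nfe2l2* itself, *Keap1*, *Nqo1*, *Srxn1*, *Txnrd1* and *Gsr* did not pass it either. Of all 10 genes 5 had a positive and 5 a negative log2 difference, and their median difference was 0.05 on the log2 scale beside -0.08 for all 10605 symbols tested.

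The sequences before the transcription starts of the members were read to show which of them hold letters of known elements, since the members differed in direction. RefSeq promoter windows (GRCm38.p6, the build of the mm10 files) were at hand for 7 of the 10 members. *Hmox1*, *Gclc* and *Gsr* had no window and were not searched. Each window held the 250 bases before the start and a shorter stretch after it. 3 motifs were searched for on both strands, the ARE core (TGACNNNGC), the AP-1 element bound by JUN and FOS proteins (TGANTCA), and an ATF4 composite element (TGATGNAA). The 250 bases before the start are shown for the only member with ATF4 letters, the only member with AP-1 letters, and the 2 members with ARE letters in this stretch at a listed first start, each 5′ to 3′ on the strand of the gene with the matching letters in capitals.
Slc7a11, minus strand, chr3:50443614-50443863, ATF4 letters: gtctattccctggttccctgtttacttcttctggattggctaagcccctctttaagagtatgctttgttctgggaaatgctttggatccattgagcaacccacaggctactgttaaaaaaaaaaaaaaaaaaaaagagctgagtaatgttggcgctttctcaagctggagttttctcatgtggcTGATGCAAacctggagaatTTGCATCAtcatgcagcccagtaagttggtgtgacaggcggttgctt
Gclm, plus strand, chr3:122245307-122245556, ARE letters: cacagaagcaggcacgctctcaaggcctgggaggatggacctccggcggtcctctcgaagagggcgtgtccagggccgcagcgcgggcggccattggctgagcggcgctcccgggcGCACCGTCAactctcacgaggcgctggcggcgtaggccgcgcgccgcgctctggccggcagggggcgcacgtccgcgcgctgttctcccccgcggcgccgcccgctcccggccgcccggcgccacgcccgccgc
Nfe2l2, minus strand, chr2:75704664-75704913, ARE letters: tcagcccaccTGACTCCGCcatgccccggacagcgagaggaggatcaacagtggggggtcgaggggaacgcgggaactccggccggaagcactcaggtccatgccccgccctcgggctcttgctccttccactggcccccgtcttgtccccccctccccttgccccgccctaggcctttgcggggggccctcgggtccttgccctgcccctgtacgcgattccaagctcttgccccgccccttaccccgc
Srxn1, plus strand, chr2:152105274-152105523, AP-1 letters: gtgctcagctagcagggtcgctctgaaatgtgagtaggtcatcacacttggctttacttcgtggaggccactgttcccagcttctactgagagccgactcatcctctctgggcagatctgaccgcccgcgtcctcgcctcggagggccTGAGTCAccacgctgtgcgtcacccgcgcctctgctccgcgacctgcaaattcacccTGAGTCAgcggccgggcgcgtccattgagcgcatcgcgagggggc

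*Slc7a11* held the ATF4 letters at 2 places, at positions -66 to -59 and, on the opposite strand, at -47 to -40, while 4.51% of the 27025 genes with a window held them at least once. *Srxn1* held the AP-1 letters at -102 to -96 and at -45 to -39, against 8.97% of genes. ARE letters stood in 4 of the 7 members against 14% of all genes and 17.3% of the 7340 tested symbols that had a window. They lay at -240 to -232 in *Nfe2l2* and at -134 to -126 in *Gclm*. In *Txnrd1* they lay at -92 to -84 of its second listed start, and in *Srxn1* after the start. The measured *Txnrd1* locus begins at this second start, and the first listed start lies outside it. None of these 4 members passed the test across all genes, all 3 E3KO libraries being above the controls for *Gclm*, below them for *Nfe2l2* and overlapping with them for *Srxn1* and *Txnrd1*. *Keap1*, *Nqo1* and *Slc7a11* had no ARE letters in this window. No spelling of the ARE core other than TGACNNNGC was searched for, in *Srxn1* or elsewhere. A match of letters is a description of the sequence and does not show that a factor bound there.

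The values are FPKM, counts of fragments scaled for the length of the transcript and the size of the library, so that levels can be compared between genes as well as between libraries. The library labelled E3KO replicate 1 summed to 9841812 and the other 8 libraries to between 656089 and 908401, and in the former 10 symbols took 96.4% of the sum against 40.9 to 56.8% elsewhere. Without the symbols averaging 5000 FPKM or more, the sums were 388537 to 433172 in all 9 libraries. *Mapk8* was 20.8 FPKM in the library labelled E3KO replicate 1, above all controls (14.1 to 17.9), and 8.77 and 4.65 in the other two, and *Mapk9* was 27.6, 35.1 and 20.7 against 42.7 to 50.9 in the controls. Results are therefore given with and without that library. Endothelial markers such as *Pecam1* and *Cdh5* were high in all 9 libraries, but *Vwf* was at 0.356 to 2.15 FPKM and was not tested. Sums over 10 markers were 2742 to 3487 in the controls and 3513 to 3894 in E3KO. The tested markers had a median log2 difference of 0.03 from both controls. Of these markers 1 was called against both controls (background 4.8% of symbols). This was *Emcn* (endomucin), at 822 to 1095 FPKM in the controls and 1557, 1452 and 1477 in E3KO. The higher marker sums of E3KO rest largely on *Emcn*. A lower level in a culture can mean fewer cells of a type or less RNA in each cell, and these cannot be told apart here.

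In the 6 control libraries the members spanned a wide range of levels. *Hmox1* averaged 273 FPKM and *Nqo1* 228 FPKM, and their ranges overlapped, with *Hmox1* the higher in 5 of 6 libraries. *Nfe2l2* followed at 171.5 FPKM, higher than 96.5% of tested symbols. *Srxn1* (111) and *Txnrd1* (91.9) came next and also overlapped. *Gclm* (45.7), *Gsr* (35.5), *Gclc* (14.2), *Keap1* (8.07) and *Slc7a11* (1.50) followed, each separated from its neighbours in every control library. *Keap1* mRNA thus stood well below the mRNA of the protein it restrains, with *Nfe2l2* at 17.6 to 26.8 times *Keap1* in single control libraries. *Slc7a11* lay near the bottom of the tested range, at percentile 2.18.

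**Figure D1:**
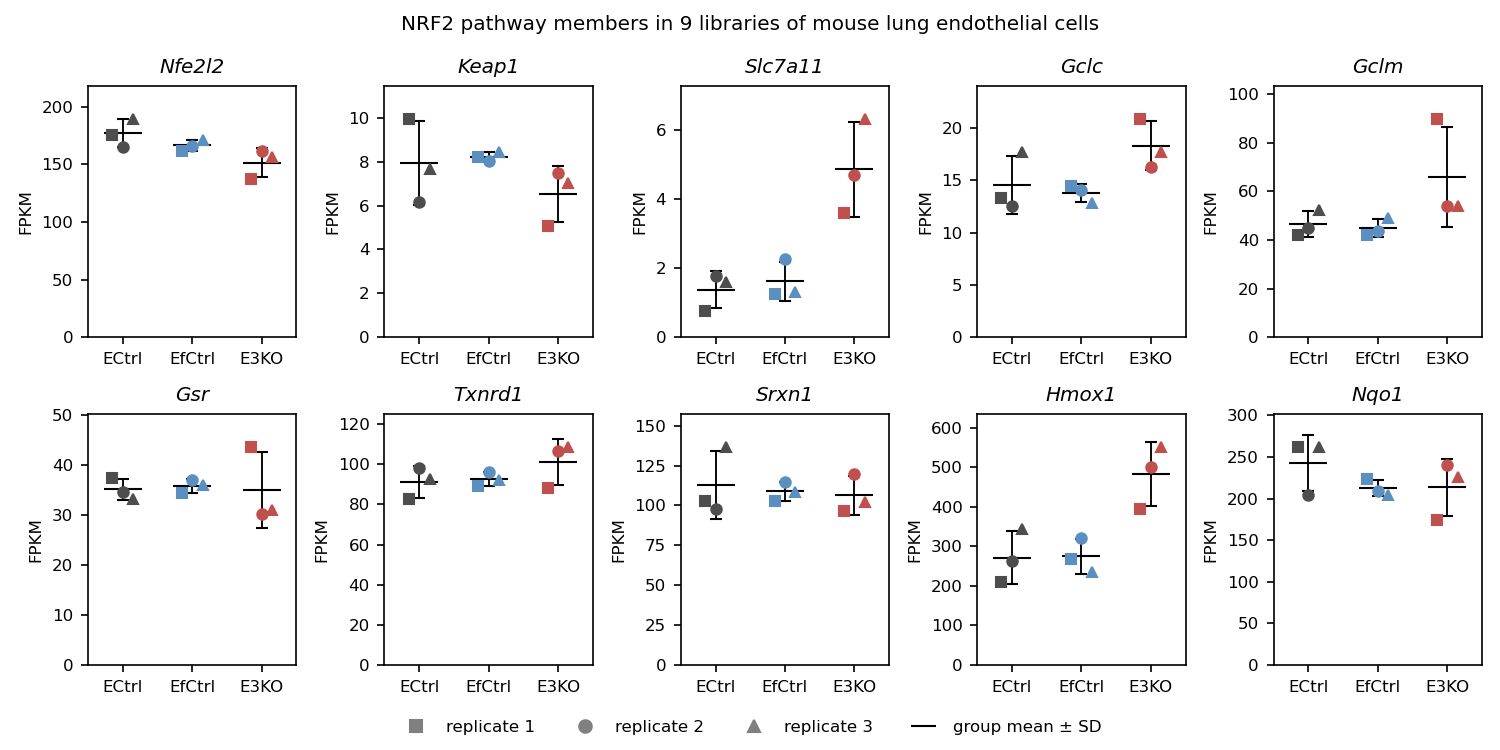
FPKM (vertical axes, each from 0) of the 10 members in each library, by group (horizontal axes), with symbols for the replicate number and bars for the group mean ± SD (n = 3). *Slc7a11*, *Hmox1* and *Gclm* lay above all 6 controls in all 3 E3KO libraries, *Nfe2l2* lay below them, and the library labelled E3KO replicate 1 (red square) was the E3KO library farthest from the controls for *Gclm* and *Nfe2l2*.

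The question asked of each gene was whether its mRNA differed when the endothelial cells lacked JNK1 and JNK2. Every symbol was tested with limma on log2(FPKM + 1) in 1 model of the 9 libraries, with Benjamini-Hochberg adjustment over 10605 symbols, and was called at an adjusted p under 0.05. Of the 10 members, 1 was called against ECtrl (background 2.25% of symbols), 0 against EfCtrl (background 0.952%) and 2 against both controls (background 4.8%). Those called were higher in E3KO, as were 0.82% of symbols against ECtrl and 1.54% against both, and 0 members were called lower (background 1.43% against ECtrl, 0.585% against EfCtrl and 3.26% against both). *Slc7a11* and *Hmox1* had an unadjusted limma p under 0.05 against ECtrl, as did 20.1% of symbols. These 2 genes, *Gclc* and *Gclm* had one against EfCtrl (17.7% of symbols) and against both (23.8%). Between the controls themselves limma called 0 members and 0 symbols (background 0%), with 195 symbols (1.84%) at an unadjusted p under 0.05. For single members, the 3 E3KO and 6 control libraries were also permuted on log2(FPKM + 0.1) in an exact test (two-sided), whose 84 splits give a smallest p of 0.0119. A p under 0.05 was obtained for 5 members, beside 25.7% of all tested symbols. All 3 E3KO libraries lay above all controls for 3 members (5.18% of symbols) and below them for 1 (11.5% of symbols).

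**Figure D2:**
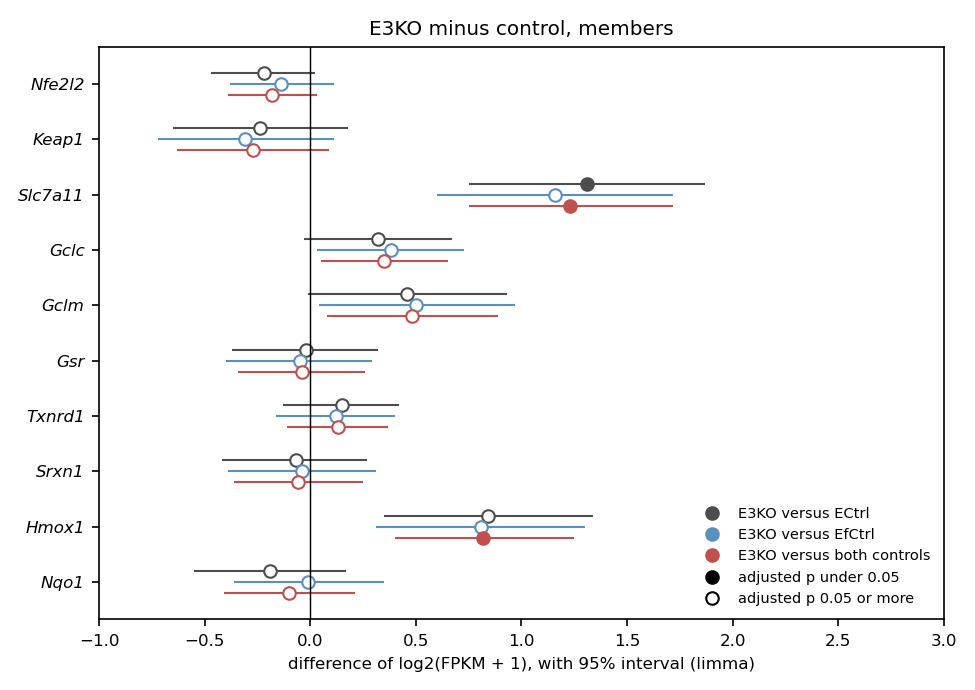
Difference of log2(FPKM + 1) between E3KO and each control group, or the mean of both, for the 10 members (horizontal axis, points with limma 95% intervals). Filled points had an adjusted p under 0.05, which were *Slc7a11* against ECtrl and against both controls and *Hmox1* against both controls, and intervals clear of 0 without a call were those of *Slc7a11* against EfCtrl, *Hmox1* against each control, and *Gclc* and *Gclm* against EfCtrl and against both.

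*Slc7a11* (chromosome 3, 50364936 to 50443613) encodes xCT, the light chain of the antiporter that brings in cystine for glutathione synthesis in exchange for glutamate. Its FPKM was 0.765, 1.77 and 1.59 in ECtrl, 1.27, 2.27 and 1.33 in EfCtrl, and 3.59, 4.69 and 6.34 in E3KO. The lowest E3KO library lay above the highest control. The mean was 4.88 ± 1.38 (SD, n = 3) in E3KO against 1.50 ± 0.510 (SD, n = 6) in the controls. On the log2(FPKM + 1) scale, which understates changes at such low levels, E3KO was higher by 1.31 than ECtrl (SE 0.24, limma adjusted p = 0.0394), by 1.16 than EfCtrl (SE 0.24, adjusted p = 0.0694) and by 1.23 than both (SE 0.21, adjusted p = 0.0217). The exact permutation p was 0.0119. Only E3KO had a mean of 2 FPKM or more, the minimum for testing, so *Slc7a11* entered through the group where it was high. A minimum over all 9 libraries also kept it, again through the E3KO values. With no minimum it was not called (limma adjusted p = 0.128 against both and 0.192 against ECtrl). The place of *Slc7a11* among the members called is therefore no support for the list.

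Leaving out the library labelled E3KO replicate 1 gave *Slc7a11* a log2 difference of 1.40 against both controls (limma adjusted p = 0.028). The call against both controls was lost without EfCtrl replicate 1 (limma adjusted p = 0.0598), EfCtrl replicate 3 (0.0632), E3KO replicate 2 (0.0558) or E3KO replicate 3 (0.0899), with log2 differences of 1.06 to 1.40 over the 9 omissions. The call against ECtrl held in 1 of the 9 omissions, that of E3KO replicate 1. It was lost without ECtrl replicate 1 (limma adjusted p = 0.122), replicate 2 (0.056) or replicate 3 (0.0709), without EfCtrl replicate 1 (0.0687), replicate 2 (0.0581) or replicate 3 (0.0809), and without E3KO replicate 2 (0.0812) or replicate 3 (0.119). Against EfCtrl a call appeared when ECtrl replicate 1 was left out (limma adjusted p = 0.0476). With the replicate number as a block, the difference from ECtrl was not called (limma adjusted p = 0.0532).

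Cystine is reduced to cysteine, which glutamate-cysteine ligase joins to glutamate. The catalytic subunit of this enzyme is *Gclc* (chromosome 9, 77754535 to 77794485) and its modifier subunit is *Gclm* (chromosome 3, 122245557 to 122293547). *Gclm* was 42.0, 45.0 and 52.4 FPKM in ECtrl, 42.2, 43.6 and 49.1 in EfCtrl, and 90.0, 54.1 and 53.9 in E3KO. The 3 E3KO libraries were the highest of the 9, but by a wide margin only in the library labelled E3KO replicate 1. The mean was 66.0 ± 20.8 (SD, n = 3) against 45.7 ± 4.18 (SD, n = 6), a ratio of 1.44 with that library and 1.18 without it. The log2 difference from both controls was 0.48 (SE 0.18, limma adjusted p = 0.152) and 0.24 without it (limma adjusted p = 0.253), while the exact permutation p was 0.0119. The locus also spans *Dnttip2*, which has a row of its own, so some of its fragments may belong to a neighbouring gene.

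*Gclc* was 13.3, 12.6 and 17.7 FPKM in ECtrl, 14.5, 14.1 and 12.8 in EfCtrl, and 20.9, 16.3 and 17.7 in E3KO. ECtrl replicate 3 overlapped the E3KO range. The mean was 18.3 ± 2.34 (SD, n = 3) against 14.2 ± 1.88 (SD, n = 6), a log2 difference of 0.35 (SE 0.13, limma adjusted p = 0.16). The exact permutation p was 0.0357. It was 0.107 without the library labelled E3KO replicate 1. It was also 0.0714 without ECtrl replicate 1, ECtrl replicate 2, EfCtrl replicate 3 or E3KO replicate 3, and 0.0536 without EfCtrl replicate 1 or replicate 2, in the same exact permutation test. The ratio of *Gclc* to *Gclm* was 0.262 to 0.343 in the controls and 0.232 to 0.329 in E3KO, with a difference of -0.12 in log2 ratio and an exact permutation p of 0.417.

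*Gsr* (chromosome 8, 33652523 to 33698163) encodes glutathione reductase, which returns oxidized glutathione to its reduced form with NADPH. It was 37.5, 34.7 and 33.3 FPKM in ECtrl, 34.4, 37.1 and 36.1 in EfCtrl, and 43.8, 30.2 and 31.1 in E3KO. The E3KO libraries fell on both sides of the controls, with the library labelled E3KO replicate 1 above all 6 and the other two below all 6. The log2 difference from both controls was -0.04 (95% interval -0.34 to 0.26, limma adjusted p = 0.874). Without the library labelled E3KO replicate 1 it was -0.21 (limma adjusted p = 0.212, exact permutation p = 0.0357, the smallest that 2 against 6 libraries allow).

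*Txnrd1* (chromosome 10, 82859206 to 82897724) encodes cytosolic thioredoxin reductase, a selenoprotein that keeps thioredoxin reduced. Its FPKM was 82.8, 98.0 and 92.9 in ECtrl, 89.3, 96.2 and 92.3 in EfCtrl, and 88.0, 107 and 109 in E3KO. E3KO replicates 2 and 3 lay above all controls and replicate 1 within them. The log2 difference from both controls was 0.13 (95% interval -0.11 to 0.37, limma adjusted p = 0.464, exact permutation p = 0.155). Without the library labelled E3KO replicate 1 it was 0.23 (limma adjusted p = 0.205, exact permutation p = 0.0357). *Srxn1* (chromosome 2, 152105516 to 152111376) encodes sulfiredoxin, which restores overoxidized peroxiredoxins. It was 103, 97.9 and 137 FPKM in ECtrl, 103, 115 and 109 in EfCtrl, and 96.5, 119.8 and 102.5 in E3KO. The groups overlapped throughout, with a log2 difference of -0.06 (95% interval -0.36 to 0.25, limma adjusted p = 0.816, exact permutation p = 0.643). The difference was 0.01 without the library labelled E3KO replicate 1 (limma adjusted p = 0.977).

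*Hmox1* (chromosome 8, 75093591 to 75100596) encodes the inducible heme oxygenase, which splits heme into biliverdin, carbon monoxide and iron. It was 209, 263 and 343.5 FPKM in ECtrl, 269, 322 and 234 in EfCtrl, and 394, 501 and 553 in E3KO. No E3KO library overlapped the controls. The mean was 483 ± 81.1 (SD, n = 3) against 273 ± 51.3 (SD, n = 6). E3KO was higher by 0.82 on the log2 scale than both controls (SE 0.19, limma adjusted p = 0.0466, exact permutation p = 0.0119). The differences from ECtrl (0.84, SE 0.22, limma adjusted p = 0.0814) and from EfCtrl (0.81, SE 0.22, limma adjusted p = 0.119) were nearly the same size but were not called.

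The *Hmox1* call lay close to the threshold. Against both controls it held without the library labelled E3KO replicate 1 (log2 difference 0.96, limma adjusted p = 0.0455) and without ECtrl replicate 3 (0.035). It was lost without ECtrl replicate 1 (limma adjusted p = 0.0714) or replicate 2 (0.0757), without EfCtrl replicate 1 (0.111), replicate 2 (0.0669) or replicate 3 (0.108), and without E3KO replicate 2 (0.105) or replicate 3 (0.144). The log2 difference stayed between 0.72 and 0.96 in these fits. With the replicate number as a block it was not called (limma adjusted p = 0.0729).

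Levels of leukocyte markers are given beside the called genes, since *Hmox1* and *Slc7a11* are expressed by macrophages as well as by endothelial cells. The summed FPKM of 14 macrophage and leukocyte markers was 98.6 to 197 in ECtrl, 202 to 327 in EfCtrl and 285 to 406 in E3KO, and none of the 14 was at 0 in any library. Over the 10 markers tested the median log2 difference was 1.08 against ECtrl, 0.39 against EfCtrl and 0.82 against both controls. Of these markers 1, *Cd53*, was called against ECtrl (limma adjusted p = 0.0478, background 2.25%) and against both (0.0417, background 4.8%). Against EfCtrl 0 were called (background 0.952%). Between the controls the median of the list was 0.66 for EfCtrl minus ECtrl with 0 markers called (limma), while the difference there was 0.03 for *Hmox1* (95% interval -0.46 to 0.53) and 0.15 for *Slc7a11* (95% interval -0.41 to 0.71). EfCtrl replicate 2 had a marker sum of 327, above the 285 of E3KO replicate 1, with 322 against 394 FPKM of *Hmox1* and 2.27 against 3.59 FPKM of *Slc7a11*. A single marker, *Lyz2*, made up 191 FPKM of the former sum and 133 FPKM of the latter, so the order of these sums rests largely on it. The sums of E3KO replicates 2 and 3 (364 and 406 FPKM) lay above those of all 6 controls. The part of leukocytes in the differences of *Hmox1* and *Slc7a11* was not tested. The sum of lung epithelial markers was 51.5 FPKM in the library labelled E3KO replicate 1 and 2.59 to 6.05 in the rest, and that of fibroblast and smooth muscle markers was 13.3 to 82.9 in the controls and 12.4 to 26.2 in E3KO.

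**Figure D3:**
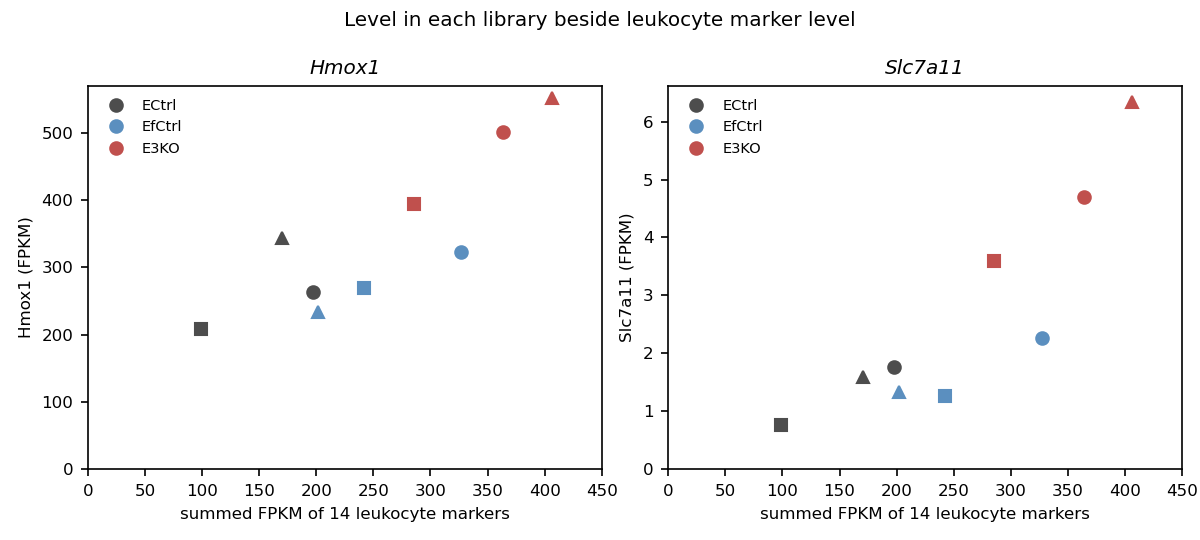
FPKM of *Hmox1* (left) and *Slc7a11* (right) in each library (vertical axes) against the summed FPKM of 14 macrophage and leukocyte markers in the same library (horizontal axes), coloured by group, with squares, circles and triangles for replicates 1, 2 and 3. The marker sums of EfCtrl (202 to 327) and E3KO (285 to 406) overlapped, with E3KO replicates 2 and 3 above every control. The sums of the 2 control groups did not overlap with each other. Both genes were higher in every E3KO library than in any control.

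*Nqo1* (chromosome 8, 107388225 to 107403206) encodes the quinone reductase that is widely used as a readout of NRF2 activity. Its FPKM was 262.5, 204 and 262 in ECtrl, 224, 209 and 205 in EfCtrl, and 174.5, 240.5 and 225.5 in E3KO. The E3KO values spanned most of the control range, the lowest being that of the library labelled E3KO replicate 1. The log2 difference from both controls was -0.10 (95% interval -0.41 to 0.21, limma adjusted p = 0.684, exact permutation p = 0.476), and 0.04 without that library (limma adjusted p = 0.871). The interval with all libraries lay below the differences measured for *Hmox1* (0.82) and *Slc7a11* (1.23). The activity of NRF2 was not tested.

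*Nfe2l2* (chromosome 2, 75675513 to 75704641) was 175, 165 and 189.5 FPKM in ECtrl, 161.5, 166 and 171 in EfCtrl, and 137, 161 and 156 in E3KO. All 3 E3KO libraries lay below the lowest control, but the highest of them missed it by less than 1 FPKM. The mean was 151 ± 12.8 (SD, n = 3) against 171.5 ± 10.1 (SD, n = 6), a ratio of 0.883. The log2 difference was -0.18 (SE 0.09, limma adjusted p = 0.274), beside a median of -0.08 for all symbols, with an exact permutation p of 0.0119. Without the library labelled E3KO replicate 1 the difference was -0.11 (exact permutation p = 0.107). With each library centred on its median, which takes out such a general shift, it was also -0.11 (exact permutation p = 0.107). *Keap1* (chromosome 9, 21225371 to 21239332) was 9.96, 6.18 and 7.66 FPKM in ECtrl, 8.21, 8.02 and 8.43 in EfCtrl, and 5.09, 7.50 and 7.02 in E3KO. The groups overlapped, with a log2 difference of -0.27 (95% interval -0.63 to 0.09, limma adjusted p = 0.326, exact permutation p = 0.131). Without the library labelled E3KO replicate 1 the difference was -0.13 (limma adjusted p = 0.67). Without ECtrl replicate 2, the lowest control, the exact permutation p was 0.0179. The annotation places an antisense gene over part of the *Keap1* locus, and whether reads were counted by strand is not given in the sources used here. The log2 ratio of *Nfe2l2* to *Keap1* was 4.42 ± 0.22 (SD, n = 6) in the controls and 4.55 ± 0.17 (SD, n = 3) in E3KO (exact permutation p = 0.393).

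Across the 9 libraries, the symbols whose level was most like that of *Nfe2l2* were *Tes* (Pearson r = 0.991 on log2(FPKM + 1)), *Nat2* (0.973) and *Tmem110* (0.972). *Tes*, a focal adhesion protein, was 70.7 to 84.2 FPKM in the controls and 56.6, 69.7 and 65.4 in E3KO, so that its lowest value was also in the library labelled E3KO replicate 1. These are the highest of 10605 correlations over libraries that share groups and one outlying library, and are given as a description.

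The machinery around NRF2 was described by a list of 14 regulators and partners, of which 11 were tested and 0 were called in any contrast by limma. The background was 2.25% of symbols against ECtrl, 0.952% against EfCtrl and 4.8% against both. The median log2 difference of the list from both controls was -0.02. *Bach2*, a repressor that competes for MAF-dependent elements, had the largest difference, -0.97 (limma adjusted p = 0.237), with 0.852 to 5.02 FPKM in the controls and 0.254, 2.26 and 0.378 in E3KO. *Bach1*, the related repressor of *Hmox1*, was 12.0 ± 1.14 FPKM (SD, n = 6) in the controls and 7.62, 12.3 and 12.3 in E3KO (log2 difference -0.17, limma adjusted p = 0.539). The next largest differences after *Bach2* went the other way, those of *Gsk3b* (0.25, limma adjusted p = 0.303) and *Btrc* (0.21, limma adjusted p = 0.349). *Cul3*, the scaffold of the ligase that KEAP1 serves, differed by -0.17 (limma adjusted p = 0.448).

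Of 34 other glutathione genes 28 were tested, and 3 were higher and 0 lower in E3KO than in both controls (background 1.54% higher and 3.26% lower), with a median log2 difference of 0.12. The list was chosen with earlier results of these data known, so its count is given as a description. *Gsto1*, an omega-class glutathione transferase, was 75.6, 83.4 and 93.4 FPKM in ECtrl, 72.7, 82.5 and 83.6 in EfCtrl, and 189, 147 and 176 in E3KO. It was called against ECtrl (log2 difference 1.01, limma adjusted p = 0.0188), against EfCtrl (1.09, limma adjusted p = 0.0287) and against both (1.05, limma adjusted p = 0.0109), and these calls held in 6, 4 and 8 of the 9 omissions of a library. The call against both was lost without E3KO replicate 3 (limma adjusted p = 0.0672). Without the library labelled E3KO replicate 1 the difference from EfCtrl was 1.01 and was not called (limma adjusted p = 0.051). *Gpx8*, a glutathione peroxidase family member of the endoplasmic reticulum, was 25.3 ± 4.99 FPKM (SD, n = 6) in the controls and 49.7, 40.3 and 46.7 in E3KO (log2 difference 0.84, limma adjusted p = 0.0262, and 0.0609 without the library labelled E3KO replicate 1). It was called against ECtrl (limma adjusted p = 0.0368) but not against EfCtrl (0.112). *Gsta3*, an alpha-class transferase, was 0.425 to 2.05 FPKM in the controls and 5.01, 2.80 and 3.79 in E3KO (log2 difference 1.37, limma adjusted p = 0.0224, and 0.0542 without that library). It was called against ECtrl (limma adjusted p = 0.0338) but not against EfCtrl (0.0965). *Gsta3* reached the minimum for testing only through E3KO, so its place among the 3 is no support for the list, and with no minimum it was not called (limma adjusted p = 0.136). It also belongs to a family of close copies among which reads can be split.

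The 17 tested members of the thioredoxin and peroxiredoxin list had a median of 0.01, with 0 higher and 1 lower (background 3.26% lower). *Prdx4*, the peroxiredoxin of the endoplasmic reticulum, was 88.5 to 122 FPKM in the controls and 56.5, 72.2 and 67.2 in E3KO, a log2 difference of -0.59 from both controls (limma adjusted p = 0.034). It was called against ECtrl (limma adjusted p = 0.0462) but not against EfCtrl (0.128). Without the library labelled E3KO replicate 1 its adjusted p in limma was 0.0631, and the call was held in 3 of 9 omissions. Among the 9 tested NADPH supply genes the median was 0.21, and 1 gene was called lower (background 3.26% lower). *Idh2*, the mitochondrial NADP-dependent isocitrate dehydrogenase, was 18.4 to 32.1 FPKM in the controls and 13.3, 12.1 and 11.4 in E3KO (log2 difference -0.87, limma adjusted p = 0.0285, held in 4 of 9 omissions). It was called against ECtrl (limma adjusted p = 0.0405) but not against EfCtrl (0.108).

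Of 10 other genes of heme and iron handling, 1 was higher (background 1.54%) and 0 were lower (background 3.26%) than in both controls, with a median of 0.04. *Fth1*, the ferritin heavy chain that stores iron, was 4050 ± 247 FPKM (SD, n = 6) in the controls and 5220, 5700 and 5867 in E3KO (log2 difference 0.47, limma adjusted p = 0.0334, held in 4 of 9 omissions, and 0.0356 without the library labelled E3KO replicate 1). It was called against neither ECtrl (limma adjusted p = 0.0653) nor EfCtrl (0.0839). *Fth1* has processed copies in the genome, to which its reads can also align. Against both controls (background 4.8%), limma called 0 of 14 tested detoxification genes (median 0.16) and 0 of 8 tested superoxide and peroxide enzymes (median -0.09). The largest differences in the former were those of *Cbr3* (0.74, limma adjusted p = 0.279), a carbonyl reductase, and *Esd* (0.71, limma adjusted p = 0.0718), an esterase that acts in glutathione-dependent removal of formaldehyde. *Esd* was 150 to 262 FPKM in the controls and 329, 375 and 352 in E3KO. *Cat*, catalase, was 33.5 to 37.9 FPKM in the controls and 22.4, 34.0 and 35.6 in E3KO, the low value again in the library labelled E3KO replicate 1.

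**Figure D4:**
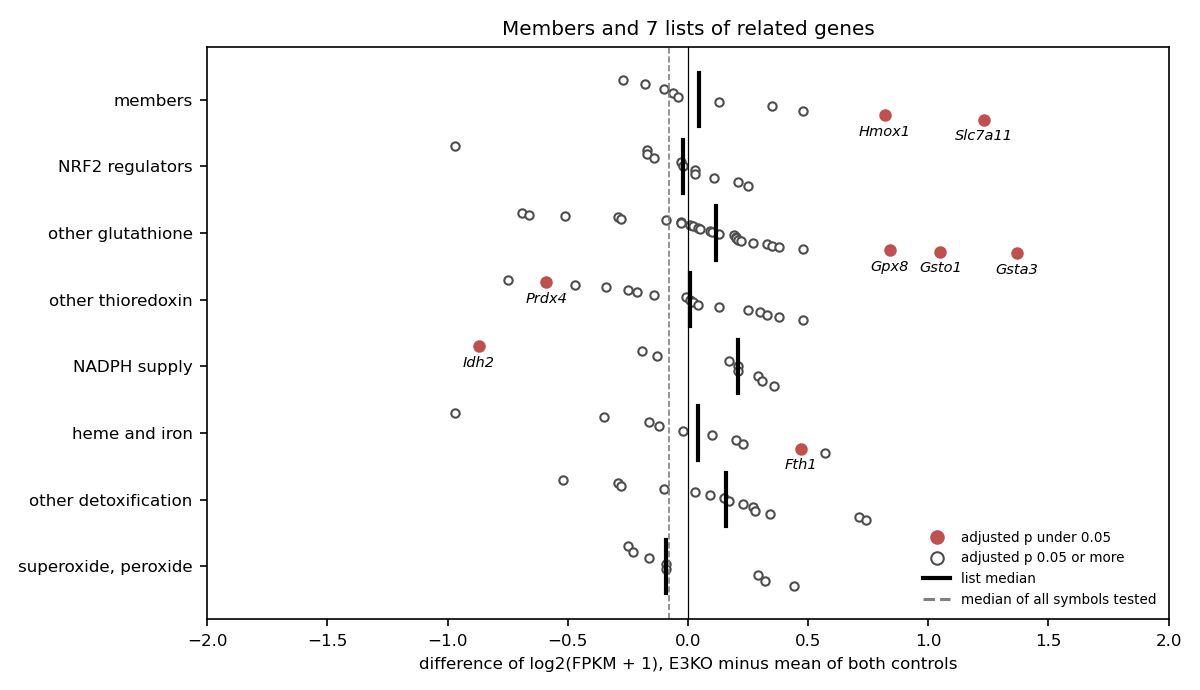
Difference of log2(FPKM + 1) between E3KO and the mean of both controls (horizontal axis) for each tested gene of the members and of 7 related lists (rows), with list medians as vertical bars and the median of all tested symbols as a dashed line. Genes with an adjusted p under 0.05 are filled and named, *Hmox1*, *Slc7a11*, *Gpx8*, *Gsto1*, *Gsta3* and *Fth1* to the right and *Prdx4* and *Idh2* to the left, and the list medians lay between -0.09 and 0.21.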

How the data were processed

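RNA was sequenced from MLEC of 9 isolations (3 per group, each from 4 mice) as paired 40-bp reads. The authors aligned the reads to mm10 with TopHat2 and Bowtie, estimated FPKM with Cufflinks (1.0.3 in the submitters' processing notes) and compared groups with Cuffdiff on Cuffmerge models. The deposited FPKM of each library were used as given. The authors' group FPKM (1.02 to 1.23 times the library means for the members) are scaled otherwise and were not used, nor were their columns of fold changes, p-values and q-values. Groups came from the sample labels.

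Values agreed between the 3 tables, and 33353 symbols that name a single locus were kept (3749 loci share a symbol). Symbols averaging at least 2 FPKM in any group (10605) were fitted with limma 3.58.1 (R 4.3.3) on log2(FPKM + 1), 3 groups in 1 model, with Benjamini-Hochberg adjustment. The fit was tested on simulated data. Exact permutation tests used log2(FPKM + 0.1). Alternatives were another pseudocount, other filters, centring, a mean-variance trend, a replicate block and omission of each library. Members and lists were chosen with earlier results of these data known. All members are named, and of each other list the genes called against both controls, otherwise at most 4 with the largest difference. *Bach1* was named outside this rule, after its values were seen. Fragment counts are not given. Low values gave rough relative depths of 1.22 to 1.68 times ECtrl replicate 2, from which no interval was derived. Annotation was GENCODE M21 and promoters were from RefSeq. Python 3.11.15, numpy 2.4.6, pandas 2.3.3 and scipy 1.17.1 were used.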

Additional observations from a re-analysis of the deposited data

How the results depend on the processing

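The numbers of calls moved by over 1.5 times or to 0 under the settings below, and the cause was not tested. Without the filter on low values, 0 members were called against ECtrl and 0 against both controls, and all symbols called numbered 7 against ECtrl, 12 against EfCtrl, 15 against both and 2 between the controls. With a pseudocount of 0.1, 0 members were called against ECtrl and 1 against both, beside 208 and 411 of all symbols. Deviations of same-numbered libraries correlated weakly (r from -0.04 to 0.12 over 9 pairs, against -0.21 to 0.08 over 18 differently numbered pairs). In 0 of 9 libraries were the 2 best correlations both with libraries of the same number. The main fit did not take the numbers as pairs, and whether same-numbered libraries shared a preparation was not tested. The fit with the replicate number as a block called 0 members against ECtrl and 1 against both, and 1, 1 and 202 symbols against ECtrl, EfCtrl and both. With each library left out in turn, members called numbered 0 to 1 against ECtrl, 0 to 1 against EfCtrl and 0 to 2 against both, and all symbols called 0 to 215, 1 to 218, 9 to 408 and, between the controls, 0 to 4. Members with an exact permutation p under 0.05 numbered 4 to 5.

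In the comparisons of E3KO with the controls, directions turned for *Gsr*, *Srxn1* and *Nqo1*, which lay near 0. With each library centred on its median, *Gsr* was 0.05 against ECtrl, 0.02 against EfCtrl, 0.03 against both and 0.04 in the permutation test. *Srxn1* was then 0.03 against EfCtrl, 0.01 against both and 0.02 in the permutation test, and *Nqo1* was 0.06 against EfCtrl. With each library left out, *Gsr* ranged from -0.19 to 0.07 against ECtrl, -0.22 to 0.04 against EfCtrl, -0.21 to 0.05 against both and -0.21 to 0.06 in the permutation test. *Srxn1* ranged from -0.17 to 0.07, -0.13 to 0.03, -0.15 to 0.02 and -0.15 to 0.01 in the same order. *Nqo1* ranged from -0.10 to 0.13 against EfCtrl, -0.19 to 0.04 against both and -0.19 to 0.04 in the permutation test. The other 7 members kept their direction in these comparisons under every alternative run. Between the controls, where limma called 0 members in each of these fits, small differences also turned, as for *Hmox1* (-0.14 to 0.22) and *Slc7a11* (-0.05 to 0.27). Of 450 limma results for members against the controls, 402 kept direction and call, 26 lost a call, 1 gained one and 21 changed direction.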
